A study of Solanum lycopersicum with 36 samples.

Results

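The genes described here are the 200 whose mRNA in tomato leaves stood highest, against every other time of day sampled, 4 hours into the night. They were chosen by their mRNA values. Counts were turned into counts per 1000000 gene counts of a library (CPM) and averaged over the 3 mRNA libraries of each time. A gene was a candidate if its highest mean was at the time labelled Dark 4h and was at least 10 CPM, which held for 2002 of the 34075 gene identifiers. Candidates were ranked by log2(mean CPM + 1) at Dark 4h minus the same value at the second highest time, and the first 200 were taken. All mRNA values of these members are therefore given as a description, with no test. Tests are reported only for GMUCT, the assay that the choice did not use.

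The leaves came from Solanum lycopersicum, genotype Heinz 1706, the cultivar of the tomato reference genome. Growth was at 25 °C under a cycle of 12 h light with 12 h dark, and leaves were taken at an age of 4 weeks, with no other treatment named. The 6 groups were labelled Light 0h, Light 4h, Light 8h, Dark 0h, Dark 4h and Dark 8h, where the hour is read as time since that phase began. For each group there were 3 mRNA libraries, from polyadenylated RNA, and 3 GMUCT libraries. Nothing in the labels states that the replicates are different plants, and p-values then reflect only how far these samples scatter, which may be technical scatter. They also do not say whether mRNA and GMUCT libraries with the same number came from the same leaves.

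GMUCT stands for the genome-wide mapping of transcripts that are uncapped or cleaved. It sequences RNA that carries a free 5' monophosphate in place of a cap. Such ends arise when the cap is removed ahead of degradation from the 5' end by an exonuclease, or when a transcript is cut inside, for example by a small RNA guided Argonaute protein. The signal of a gene therefore depends both on how much of its mRNA is present and on how much of that is being decapped or cut. In plants the circadian clock and the light regime together place many transcripts at set times of the day, and at night a leaf lives on starch and sugars stored during the day. One day in a light and dark regime cannot tell a rhythm of the clock from a response to darkness.

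The files give genes as identifiers only, and 0 of the 34075 match an entry among the 41476 genes of the reference table. Names, functions, lengths, sequences and marker genes of leaf cell types were therefore not used here, and levels are compared between times and libraries of the same gene. CPM values of different genes also depend on their lengths, so they give no order of abundance. Of the identifiers, 11600 carry the prefix gene: in the files and are printed with it. The depth in genes ran from 6632784 to 27126312 counts in mRNA and from 15739253 to 20581411 in GMUCT. The smallest mRNA library was replicate 1 of Dark 4h, with 6632784 counts against 15489391 and 20846641 in replicates 2 and 3. Among GMUCT libraries, replicate 2 of Dark 4h stood apart, because 40.2% of its reads were placed at several positions and only 54.4% fell in genes, against 13.0% and 13.8% at several positions in replicates 1 and 3 of that time.

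The night peak of the members in mRNA is set by the choice, and their trough fell mostly at Light 4h. Their median level was 43.2% of its own Dark 4h level at Dark 8h and 42.8% at Dark 0h. It was 35.2% at Light 8h and 35.1% at Light 0h, and it was lowest at Light 4h with 19.3%. Light 4h was the lowest of the 6 times for 124 of the 200 members. Light 8h was lowest for 35, Dark 0h for 20, Light 0h for 16 and Dark 8h for 5. The lowest time was not counted over the other candidates or all genes, so the trough is not read as particular to the members.

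Summed over all members, the peak took up a visible part of the libraries. The members held 3.45%, 3.32% and 2.48% of all gene counts in the Dark 4h mRNA libraries. In the other 15 mRNA libraries the share lay between 0.467% and 1.36%, with the 3 lowest values, 0.467% to 0.485%, all at Light 4h. In bulk leaf RNA, fewer cells of a type and less RNA per cell cannot be told apart.

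The time that came second to Dark 4h differed from member to member. It was Dark 0h for 64 members, Dark 8h for 57, Light 8h for 41, Light 0h for 33 and Light 4h for 5. Most members therefore had their next highest mRNA at a neighbouring time of the night. So did most of the 2002 candidates, and the trait is not particular to the members. Among the candidates Dark 8h was the most frequent second time, with 628 genes, ahead of Dark 0h with 475, Light 0h with 403 and Light 8h with 378. The 33 members with Light 0h second had a median of 53.3% of their Dark 4h level at Light 0h and 34.1% at Dark 0h. The 41 with Light 8h second had a median of 55.0% at Light 8h and 35.9% at Dark 0h. Grouping by the second time by itself places Dark 0h below that time in each of these members. The order of the times is therefore fixed, including the lower level at dusk than on either side in the 41, and only the sizes are described.

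**Figure D1:**
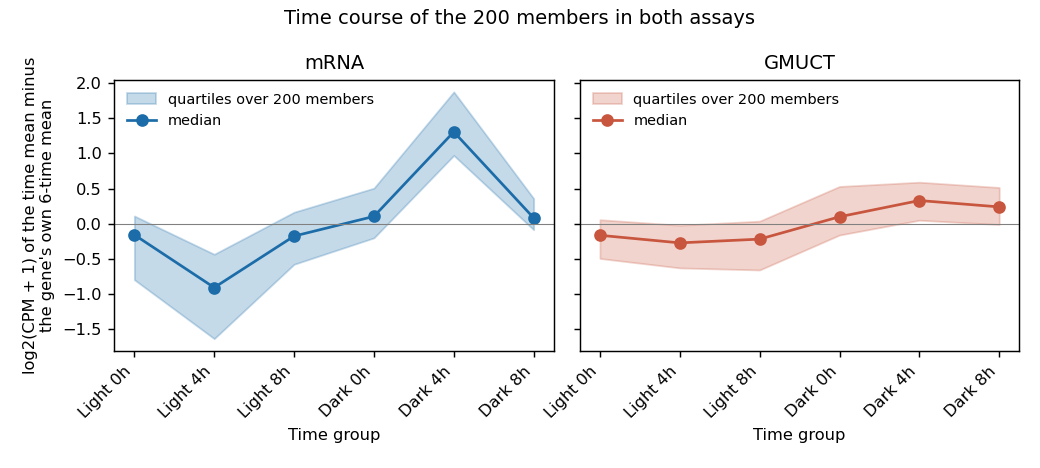
Time course of the 200 members in mRNA (left) and GMUCT (right). The horizontal axis gives the 6 times and the vertical axis log2(CPM + 1) of a time's mean minus the gene's own mean over the 6 times; the line is the median over members and the band spans the quartiles. In mRNA the median rises from -0.91 at Light 4h to 1.31 at Dark 4h, and in GMUCT from -0.28 to 0.33.

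The gaps that ranked the members ranged over more than 1 log2 unit. The median gap was 0.84, a Dark 4h level 1.79-fold that of the second time on the CPM + 1 scale, and 65 members had a gap of at least 1. The highest gap was 2.53, or 5.77-fold, and the lowest 0.57, or 1.49-fold. The line at rank 200 fell among genes with nearly the same value. The last 3 members, Solyc09g010420, gene:Solyc02g092930.1 and Solyc06g083530, had gaps of 0.580, 0.577 and 0.572. The next 3 genes, Solyc05g013560, Solyc01g094940 and gene:Solyc01g110400.2, had gaps of 0.572, 0.570 and 0.570. Of the 200 members, 156, 142 and 156 were also chosen when Dark 4h mRNA replicate 1, 2 or 3 was left out of the rule.

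The member with the highest gap was Solyc05g051450. Its mRNA was 97.1, 68.2 and 70.0 CPM in replicates 1, 2 and 3 of Dark 4h. The next highest values were 10.9, 9.19 and 18.3 CPM at Light 8h and 13.9, 10.5 and 11.5 CPM at Light 4h. The 3 Dark 4h libraries lay far above all others, while Dark 8h, only 4 hours later, had the lowest mean, from 2.99, 0.925 and 1.21 CPM. Its GMUCT signal did not have this peak. It was 12.3, 4.45 and 11.3 CPM at Dark 4h and 9.75, 14.4 and 15.8 CPM at Dark 0h, and these groups overlapped. Dark 4h differed from the mean of the other times by a log2 change of 0.64 ± 0.30 (SE; adjusted p = 0.165, edgeR quasi-likelihood test), which did not pass. Without replicate 2 of Dark 4h it was 0.98 (adjusted p = 0.0457).

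Second in rank was Solyc10g050220, in which both assays peaked together. Its mRNA was 40.0, 50.8 and 59.8 CPM at Dark 4h, against 9.27, 10.2 and 9.49 CPM at Dark 8h and 6.68, 8.88 and 7.47 CPM at Dark 0h. In the light it was between 0.0573 and 5.45 CPM. Its GMUCT signal was 14.3, 10.7 and 11.6 CPM at Dark 4h, 1.87, 3.19 and 5.65 CPM at Dark 0h and 3.65, 3.59 and 3.23 CPM at Dark 8h. All 3 Dark 4h libraries exceeded the other 15 in each assay. In GMUCT the log2 change against the mean of the other times was 3.71 ± 0.24 (SE; adjusted p = 2.40e-08, edgeR).

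The members with the highest mRNA CPM at Dark 4h were Solyc02g063450 and gene:Solyc07g006890.1. The mRNA of Solyc02g063450 was 5088, 3940 and 3867 CPM at Dark 4h and 2173, 2665 and 2209 CPM at Light 8h, its second time, with no overlap. Its GMUCT signal at Dark 4h, 790, 1833 and 1765 CPM, overlapped that at Dark 8h, 1121, 1447 and 1150 CPM, and no GMUCT comparison of it passed with all libraries. Without replicate 1 of Dark 4h it passed as higher than Dark 0h, by a log2 change of 1.03 (adjusted p = 0.0310, edgeR), than Light 4h, by 1.10 (adjusted p = 0.0170), and than the mean of the other times, by 0.82 (adjusted p = 0.0432). The mRNA of gene:Solyc07g006890.1 was 3764, 2425 and 1565 CPM at Dark 4h and 1576, 1803 and 1728 CPM at Light 8h, so that replicate 3 of Dark 4h lay below every Light 8h library. Its GMUCT signal was 60.7, 49.6 and 35.5 CPM at Dark 4h and 19.1, 25.8 and 29.6 CPM at Dark 0h, higher at Dark 4h without overlap, by a log2 change of 0.89 ± 0.27 (SE; adjusted p = 0.0224, edgeR). It did not pass without replicate 1 or 2 of Dark 4h, at 0.72 (adjusted p = 0.0944) and 0.88 (adjusted p = 0.0581), or without replicate 1 of Dark 0h, at 0.78 (adjusted p = 0.0802).

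That split between Dark 4h libraries was shared by many members. All 3 Dark 4h mRNA libraries exceeded every one of the 15 other mRNA libraries in 112 of the 200 members. The same held for 2.36% of the 12456 genes with at least 10 CPM at their highest time, a share that the choice of members raises by itself. In 55 members only replicates 1 and 2 exceeded all others, in 13 only replicates 2 and 3, in 6 only replicates 1 and 3, in 13 only replicate 2, and in gene:Solyc01g109210.2 only replicate 1. The Dark 4h libraries of a member differed by a median of 1.61-fold on the CPM + 1 scale, and by at least 4-fold in 39 members. Of these 39, replicate 2 was the highest in 32 and replicate 3 the lowest in 32.

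**Figure D2:**
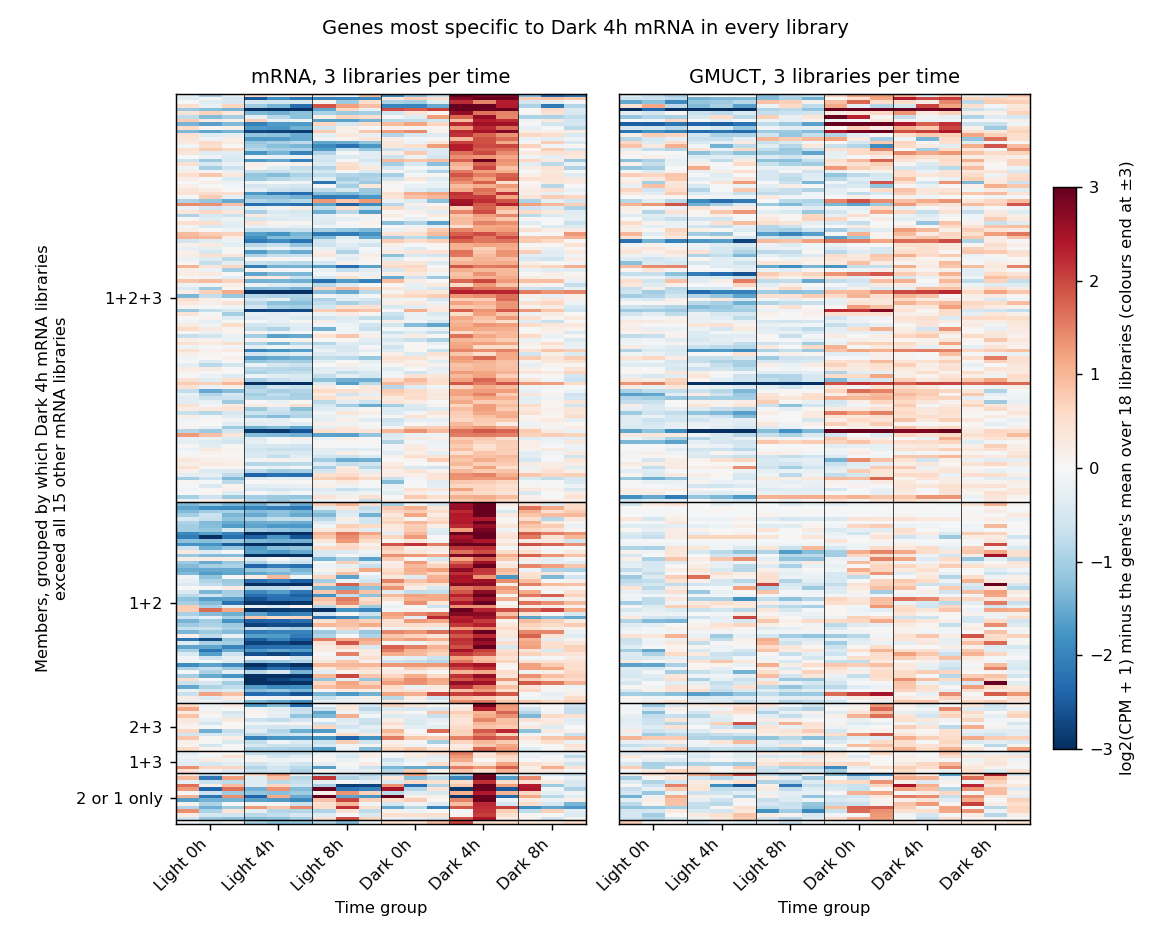
Each row is a member and each column a library, in mRNA (left) and GMUCT (right), with 3 libraries per time. Colour gives log2(CPM + 1) minus the gene's mean over the 18 libraries of that assay, and rows are grouped by which Dark 4h mRNA libraries exceeded the 15 others. The 112 members of the top block are high in all 3 Dark 4h mRNA columns. The 55 of the next block are high in replicates 1 and 2 and lower in replicate 3. In 37 of these 55, replicate 3 lay below the mean of the gene's second time.

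The 55 members carried by replicates 1 and 2 are described here beside the 112 that were high in all 3. Their median mRNA level was 44.5 CPM in replicate 1, 51.6 in replicate 2 and 17.5 in replicate 3 of Dark 4h. For the 112 members high in all 3, the medians of replicates 1, 2 and 3 were 50.1, 50.7 and 51.9 CPM. In 37 of the 55, replicate 3 lay below the mean of the gene's second time. At Light 4h their median mRNA was 3.12% of its Dark 4h level, against 23.4% in the 112. The GMUCT signal at Dark 4h was under 1 CPM in 18 of the 55 and in 4 of the 112. In GMUCT, replicate 3 was the lowest Dark 4h library in 30 of the 46 that could be tested. Nothing in the labels ties this library to replicate 3 of mRNA. For the 112, the lowest GMUCT library of Dark 4h was most often replicate 2, in 62 of 110. These counts were not made over all genes, so they are not read as traits of the blocks. These blocks were formed from the mRNA values, so their differences were not tested, and what set replicate 3 apart was not tested.

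An example, chosen after its values were seen, is a run of 4 members with close identifiers, Solyc01g007000, Solyc01g007020, Solyc01g007030 and Solyc01g007040. Of these, Solyc01g007020 had 175, 201 and 52.3 CPM of mRNA at Dark 4h. At Dark 8h it had 84.9, 64.3 and 45.6 CPM, at Dark 0h 65.4, 62.2 and 55.8 CPM, and at Light 4h 1.38, 1.79 and 1.19 CPM. Replicates 1 and 2 of Dark 4h stood above everything else, and replicate 3 lay inside the range of Dark 0h and Dark 8h. The other three followed the same order, with 14.0, 28.2 and 2.45 CPM for Solyc01g007000, 26.7, 51.6 and 4.75 CPM for Solyc01g007030 and 19.0, 36.6 and 4.27 CPM for Solyc01g007040. Few GMUCT reads fell in them. GMUCT at Dark 4h was 2.08, 1.27 and 0.784 CPM in Solyc01g007020 and at most 0.156 CPM in any library of the rest.

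The 13 members carried by replicate 2 alone included genes that varied between replicates at every time. Solyc01g097240, also chosen after its values were seen, had 1.66, 314 and 2.30 CPM of mRNA at Dark 4h. At Light 8h it had 168, 3.47 and 3.84 CPM and at Dark 0h 109, 9.81 and 24.8 CPM, so a different replicate was high at different times. Its GMUCT signal was 1075, 858 and 256 CPM at Dark 4h and 1210, 866 and 359 CPM at Dark 8h. The mRNA mean of such a gene at Dark 4h rests on 1 library. When each time was summarised by its median over replicates in place of its mean, 162 of the 200 members were chosen again.

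**Figure D3:**
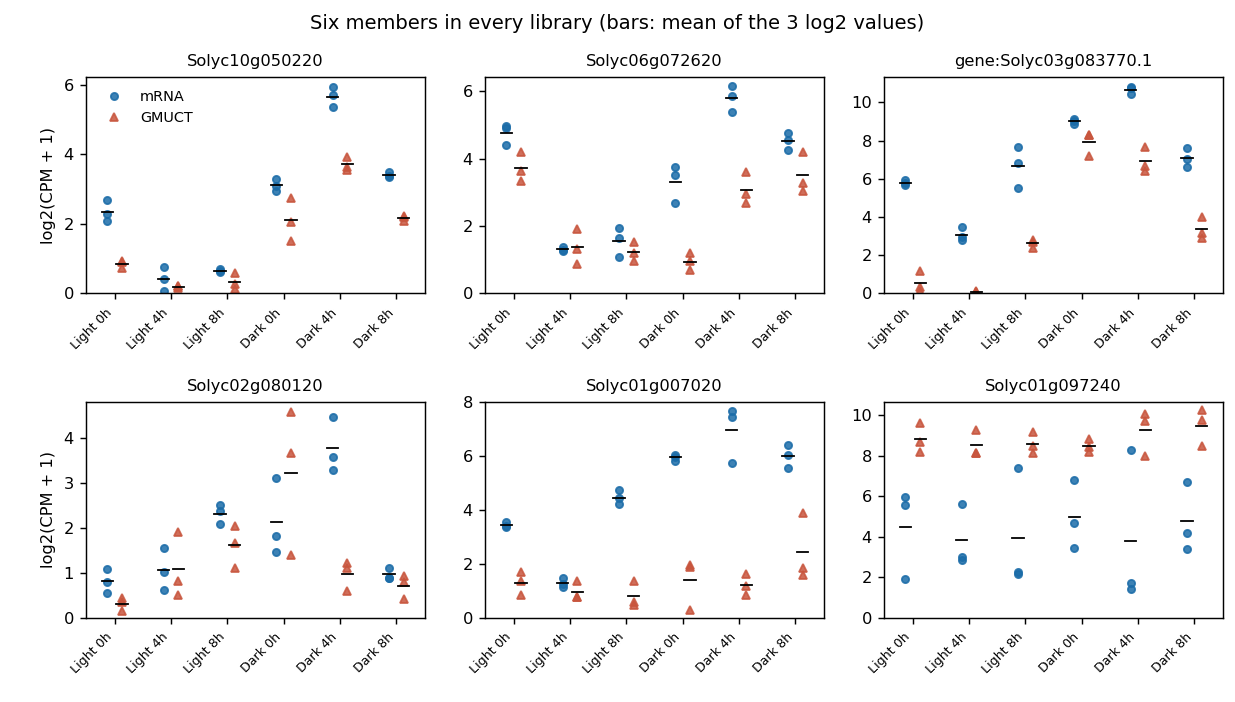
mRNA (circles) and GMUCT (triangles) of 6 members in every library. The horizontal axis gives the 6 times, the vertical axis log2(CPM + 1), and each bar is the mean of the 3 log2 values. Solyc10g050220 peaks at Dark 4h in both assays, gene:Solyc03g083770.1 has its GMUCT maximum at Dark 0h, 1 of the 3 Dark 4h mRNA libraries of Solyc01g007020 falls back to the level of Dark 0h, and the mRNA of Solyc01g097240 at Dark 4h is high in 1 of 3 libraries.

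Uncapped RNA of the members was also most plentiful at night. Members held 1.48%, 1.55% and 1.45% of the gene counts in the Dark 4h GMUCT libraries. At Dark 8h they held 1.30%, 1.30% and 1.16%, at Dark 0h 1.02%, 1.19% and 1.22%, and at Light 4h 0.800%, 0.680% and 0.664%. The 3 Dark 4h libraries were the highest of the 18. Over all 200 members, the median difference in log2(CPM + 1) between Dark 4h and the mean of the other times was 0.39 in GMUCT and 1.57 in mRNA. The mRNA value is large by the choice of members, so the distance between both was not tested.

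Of the 200 members, 189 had enough GMUCT counts to be tested, and 11 were removed by the filter on low counts. In 14 members the GMUCT mean was under 1 CPM at all 6 times. Among the 189, 121 differed among the 6 times (64.0%, adjusted p under 0.05, edgeR), against 58.4% of all 20696 genes tested. That share is near the background. The direction of change at Dark 4h departed further from it. All comparisons below share the 3 GMUCT libraries of Dark 4h, so they are not independent of each other.

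Against the mean of the other 5 times, uncapped RNA at Dark 4h was higher in 51 of the 189 members (27.0%), against 8.94% of all genes tested. It was lower in 2 members (1.06%), against 7.86% of all genes. The median log2 change was 0.33 in the members and 0.04 in all genes, and 148 members had a positive change. Without replicate 3 of Dark 4h the number higher was 32, against 5.39% of all genes tested. Without replicate 2 of Dark 4h, the library with many reads at several positions, it was 42, against 6.33%. With replicate 1 or 2 left out at all times it was 28 or 29, against 3.18% or 3.21% of all genes. The calls were unevenly spread over the blocks of the mRNA pattern. They fell on 42 of the 110 tested members high in all 3 Dark 4h mRNA libraries. Of the 46 tested members carried by replicates 1 and 2, 6 were called. The rest held 3, with 2 of the 13 carried by replicates 2 and 3 and 1 of the 6 carried by replicates 1 and 3. The blocks also differed in GMUCT level. At Dark 4h its median was 26.35 CPM in the 112 members high in all 3 and 3.02 CPM in the 55 carried by replicates 1 and 2. What this difference did to the calls was not tested.

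The 2 members with less uncapped RNA at Dark 4h were Solyc06g007190 and Solyc12g014420, named here because of their small number and after their values were seen. In Solyc06g007190, GMUCT was 0.623, 1.08 and 0.157 CPM at Dark 4h, against 2.88, 2.92 and 2.91 CPM at Light 4h, while its mRNA was 73.1, 129 and 17.6 CPM at Dark 4h and 1.55, 3.06 and 1.25 CPM at Light 4h. The assays thus ran in opposite directions between these times. Its GMUCT log2 change against the mean was -1.62 ± 0.49 (SE; adjusted p = 0.0311, edgeR), and in Solyc12g014420 it was -1.22 ± 0.39 (adjusted p = 0.0426). Both lost their call when replicate 1 or replicate 3 of Dark 4h was left out, and when any replicate number was left out at all times. In Solyc12g014420 the call was also lost without replicate 2 of Dark 4h and in the comparison without Dark 0h.

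All 3 Dark 4h GMUCT libraries exceeded the 15 others in 9 of the 200 members, against 315 of the 20696 genes tested (1.52%). The 200 include the 11 members that were not tested. In 139 members no Dark 4h library exceeded the 15 others. That count was not made over all genes, so it is not read as a trait of the members. By their change against the mean, these 9 were led by Solyc10g050220 and Solyc01g108100. For Solyc01g108100 the GMUCT signal was 20.6, 21.9 and 25.2 CPM at Dark 4h, 9.69, 10.1 and 13.9 CPM at Dark 0h and 7.35, 11.5 and 8.64 CPM at Dark 8h. At the 3 times in the light it lay between 0.111 and 2.69 CPM, below every night library. Its log2 change against the mean of the other times was 3.01 ± 0.17 (SE; adjusted p = 5.07e-09, edgeR). In mRNA it had 131, 129 and 124 CPM at Dark 4h, 75.4, 64.4 and 68.7 CPM at Dark 8h and at most 1.85 CPM at Light 4h.

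**Figure D4:**
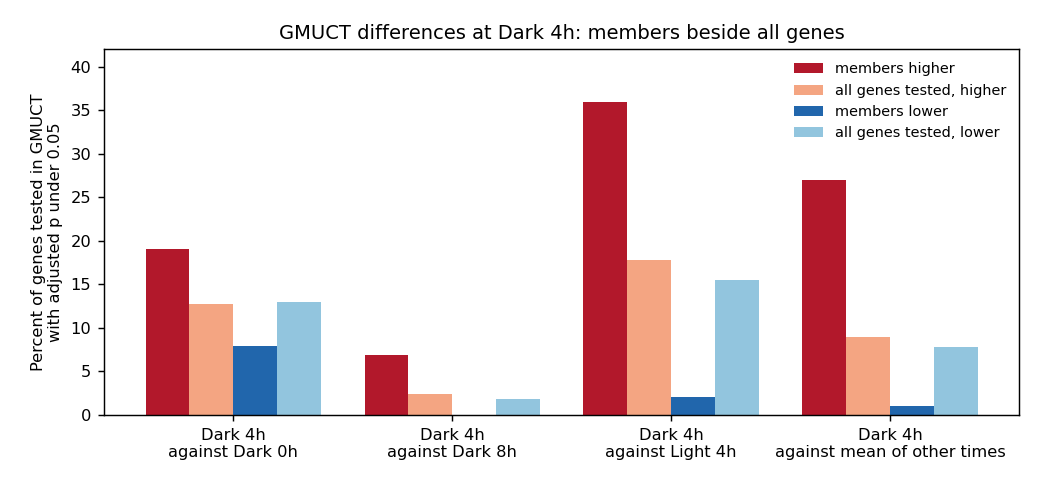
Percent of genes tested in GMUCT that were higher or lower at Dark 4h at adjusted p under 0.05 (edgeR), for the 189 members tested and for all 20696 genes, in 4 comparisons. Members exceed the background among higher calls in each comparison and lie under it among lower calls. In points the excess of higher calls was widest against Light 4h, with 36.0% beside 17.8%. It was nearly as wide against the mean of the other times, with 27.0% beside 8.94%.

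Of the 4 comparisons made, that with Light 4h, the time of the mRNA trough, had the largest median log2 change in uncapped RNA. The other times in the light were not compared singly with Dark 4h. Compared with Light 4h, GMUCT at Dark 4h was higher in 68 members (36.0%), against 17.8% of all genes tested, and lower in 4 (2.12%), against 15.5%. The median log2 change was 0.49 in members and 0.05 in all genes, and 144 of the 189 had a positive change. The number of higher members was between 58 and 66 when any single GMUCT library of these 2 times was left out. The share of all genes higher was then 13.2% to 15.5%. It was 72, 86 or 48 when Dark 4h mRNA replicate 1, 2 or 3 was left out of the choice of members. The number lower was 11 without Dark 4h mRNA replicate 3 in that choice. Changing the choice of members leaves the shares of all genes as they were. The number lower was 9 by DESeq2, against 11.1% of all genes, and 7 in a fit of the 2 groups alone, against 15.8%.

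Among the higher members without overlap and with at least 10 CPM of GMUCT at their highest time, gene:Solyc03g083770.1 had the largest change. It had 1924, 1325 and 3881 GMUCT reads in the Dark 4h libraries and 1, 2 and 1 in those of Light 4h. Relative to the gene totals of these libraries, this is a ratio of 1850, with a 95% interval of 722 to 6793 that covers counting error only. The groups lie far apart, and the fitted log2 change of 10.52 ± 0.78 (SE; adjusted p = 4.58e-08, edgeR) depends on those few reads. The second, Solyc06g005680, had 339, 310 and 490 reads at Dark 4h and 0, 2 and 0 at Light 4h, a ratio of 591 with a 95% interval of 163 to 4887. Its fitted log2 change was 8.78 ± 0.49 (adjusted p = 1.62e-09, edgeR).

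Of the 4 lower members, gene:Solyc10g009340.1 met the naming rule. Its GMUCT signal was 77.6, 82.5 and 58.5 CPM at Dark 4h and 103, 135 and 95.9 CPM at Light 4h, without overlap, while its mRNA was 718, 484 and 384 CPM at Dark 4h and 105, 112 and 128 CPM at Light 4h. The GMUCT log2 change was -0.81 ± 0.24 (SE; adjusted p = 0.0161, edgeR). It did not pass without replicate 3 of Dark 4h, at -0.69 (adjusted p = 0.0679), or without replicate 2 of Light 4h, at -0.64 (adjusted p = 0.0817). The other three, Solyc06g007190, Solyc12g014420 and Solyc03g025830, are named because of their small number, and the last of these overlapped between the 2 times.

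Against dusk the members went both ways. Compared with Dark 0h, GMUCT at Dark 4h was higher in 36 members (19.0%), against 12.8% of all genes tested, and lower in 15 (7.94%), against 13.0%. The median log2 change was 0.17 in members and -0.01 in all genes. Leaving out replicate 2 of Dark 4h or replicate 3 of Dark 0h moved the lower count to 9 or 8, against 7.90% or 10.3% of all genes. In mRNA the median difference in log2(CPM + 1) between the same times was 1.15 over the members, which the rule requires to be positive for each of them.

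Among members without overlap between these times and with at least 10 CPM of GMUCT at their highest time, the largest rise from dusk was in Solyc06g072620, followed by Solyc03g097610. In Solyc06g072620, GMUCT was 11.1, 6.67 and 5.39 CPM at Dark 4h and 0.934, 0.628 and 1.28 CPM at Dark 0h, a log2 change of 2.94 ± 0.49 (SE; adjusted p = 0.000541, edgeR). It went on to 8.64, 7.28 and 17.3 CPM at Dark 8h and 9.19, 11.5 and 17.3 CPM at Light 0h, which overlap Dark 4h. Its mRNA was already back at 26.3, 22.4 and 18.01 CPM at Dark 8h, from 69.8, 40.7 and 57.2 CPM at Dark 4h. Solyc03g097610 had 41.3, 23.1 and 34.1 CPM of GMUCT at Dark 4h and 4.96, 11.2 and 11.3 CPM at Dark 0h, a log2 change of 1.78 ± 0.32 (adjusted p = 0.000877). Its GMUCT at Light 0h, 37.1, 52.9 and 53.8 CPM, was the highest of the day by its mean.

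By the same limits, the largest falls from dusk were in Solyc02g080120 and Solyc05g008120. Solyc02g080120 had 23.1, 11.6 and 1.64 CPM of GMUCT at Dark 0h and 0.519, 1.33 and 1.15 CPM at Dark 4h, a log2 change of -3.72 ± 0.84 (SE; adjusted p = 0.00448, edgeR). The Dark 0h libraries were far from each other but all lay above Dark 4h. Its mRNA went the other way, from 2.51, 1.77 and 7.60 CPM at Dark 0h to 10.9, 21.2 and 8.78 CPM at Dark 4h. Solyc05g008120 had 9.52, 8.995 and 14.1 CPM of GMUCT at Dark 0h and 2.02, 1.33 and 2.30 CPM at Dark 4h (edgeR log2 change -2.59 ± 0.29, adjusted p = 2.01e-05). Its mRNA was 14.9, 32.8 and 18.9 CPM at Dark 0h and 54.3, 39.1 and 56.4 CPM at Dark 4h. In both genes the uncapped RNA was most plentiful at the start of the night and the mRNA 4 hours later.

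Dark 0h was the time of the highest GMUCT mean in all 15 members with lower GMUCT than at dusk. Their mRNA peak at Dark 4h is set by the choice of members. The 15 were in turn picked because their GMUCT was higher at Dark 0h than at Dark 4h. The order of the 2 assays in them is therefore largely fixed by selection, and it was not tested. Of the 15, 8 were at the same time higher at Dark 4h than at Light 4h, and so were intermediate (4.23% of the 189 tested, against 1.29% of all genes tested). Another 22 members were higher at Dark 4h than at both Dark 0h and Light 4h (11.6%, against 6.58% of all genes).

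Within the night, the later step moved fewer members. Compared with Dark 8h, GMUCT at Dark 4h was higher in 13 members (6.88%), against 2.38% of all genes tested. It was lower in 0 by edgeR, against 1.81% of all genes, and in 5 by DESeq2, against 2.665%. At an unadjusted p under 0.05 in edgeR, 18 members were lower, a count not made over all genes. The higher count was 8 without replicate 3 of Dark 4h, against 1.11% of all genes. In a fit of those 2 groups alone it was 6, against 0.492%. The median log2 change was 0.05 in members and 0.01 in all genes, whereas mRNA was lower at Dark 8h in every member by the choice of the members, with a median difference of 1.16 in log2(CPM + 1).

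With the same limits on overlap and level, the 2 largest of these changes were in gene:Solyc03g083770.1 and gene:Solyc06g051680.1. The GMUCT signal of gene:Solyc03g083770.1 was 99.9, 84.2 and 203 CPM at Dark 4h and 6.56, 7.93 and 14.9 CPM at Dark 8h (edgeR log2 change 3.63 ± 0.47 SE, adjusted p = 0.000295). At Dark 0h it was 147, 315 and 318 CPM, which overlapped Dark 4h. Its mRNA, at 1757, 1724 and 1409 CPM at Dark 4h and 511, 472 and 559 CPM at Dark 0h, was higher at Dark 4h in every library. In gene:Solyc06g051680.1, GMUCT was 28.7, 18.4 and 24.5 CPM at Dark 4h and 2.52, 2.52 and 4.07 CPM at Dark 8h (log2 change 2.88 ± 0.41, adjusted p = 0.000711). Its GMUCT at Dark 0h was higher still, 73.0, 92.7 and 166 CPM, and this difference passed as well (log2 change -2.28 ± 0.38 for Dark 4h against Dark 0h, adjusted p = 0.000551). Its mRNA was 18.7, 22.7 and 22.8 CPM at Dark 4h and 6.85, 8.22 and 5.38 CPM at Dark 0h.

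All 13 members higher than at Dark 8h were also higher than at Light 4h. Over all genes tested, this held for 292 of the 492 higher than at Dark 8h. As a share of all tested, 6.88% of members and 1.41% of genes were higher in both comparisons. All 13 members belonged to the 112 whose 3 Dark 4h mRNA libraries stood above the rest. In all, 4 passed as higher in all 3 comparisons with single times (2.12%, against 0.126% of all genes tested). These were Solyc10g050220, Solyc01g108100, Solyc02g093590 and Solyc06g063070, the last pair named because of their small number. In Solyc06g063070, GMUCT was 231, 178 and 197 CPM at Dark 4h and between 88.2 and 148 CPM in the other 15 libraries, a modest but separate peak.

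By group means, the time of highest GMUCT was spread over the whole night. It was Dark 0h for 58 of the 189 tested members (30.7%), Dark 4h for 57 (30.2%) and Dark 8h for 45 (23.8%), against 25.6%, 23.4% and 18.8% of all genes tested. It was Light 4h for 15 (7.94%), Light 8h for 10 (5.29%) and Light 0h for 4 (2.12%), against 15.4%, 9.64% and 7.18% of all genes tested. The mean at the highest time was not tested against the next one. The 4 members with their highest GMUCT at Light 0h were Solyc06g072620 and Solyc06g072630, and Solyc03g097590 and Solyc03g097610, 2 pairs with close identifiers, named because of their small number. In Solyc06g072630 the GMUCT signal was 7.52, 6.92 and 8.08 CPM at Light 0h, 6.18, 5.53 and 6.01 CPM at Dark 4h and 1.23, 1.94 and 2.49 CPM at Dark 0h, the same order as in Solyc06g072620. Whether such neighbours share reads through similar sequence could not be checked, so values of each are uncertain.

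The identifiers carry a chromosome number and a running position, which the rule did not use. Chromosome 1 had 38 members (19.0%, against 13.2% of the 12456 genes with at least 10 CPM at their highest time) and chromosome 3 had 29 (14.5%, against 10.6%). Chromosome 5 had 6 (3.00%, against 6.86%). With neighbours defined as members at most 50 apart in that number, 24 members fell into 10 runs of neighbouring identifiers. Sets of 200 genes chosen in the same way for Dark 0h and Dark 8h had 16 such runs with 39 genes and 10 runs with 20 genes, and these counts were not tested. The longest was that of Solyc01g007000 to Solyc01g007040, with 4 members that were all carried by replicates 1 and 2. The prefix gene: was carried by 51 members (25.5%), against 12.6% of the same expressed genes. It was more frequent among the 55 members carried by replicates 1 and 2, with 28, than among the 112, with 16. What the prefix stands for is not given in the sources used here, and these shares were not tested.

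The same rule applied to the other 2 night times gave sets with their own spread of gaps. The gap at rank 200 was 0.89 for Dark 0h, from 2344 candidates, 0.57 for Dark 4h, and 0.33 for Dark 8h, from 1919 candidates. Of the 200 genes most specific to Dark 0h in mRNA, 197 were tested in GMUCT, and 54 were higher and 14 lower at Dark 4h than at the mean of the other times. Of those most specific to Dark 8h, 197 were tested, and 30 were higher and 14 lower. For the Dark 4h members, 51 of 189 were higher and 2 lower. Among all genes tested, 8.94% were higher and 7.86% lower. The median log2 change was 0.43 in the Dark 0h set, 0.33 in the members and 0.16 in the Dark 8h set. A rise of GMUCT at Dark 4h was thus not particular to the Dark 4h members. GMUCT was highest at the set's own mRNA time in 26 of the tested Dark 0h genes (13.2%, against 25.6% of all genes with that GMUCT peak). The same held for 57 of the Dark 4h members (30.2%, against 23.4%) and 78 of the Dark 8h genes (39.6%, against 18.8%). The sets share the same libraries and the differences between them were not tested.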

How the data were processed

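Gene counts of 36 libraries, 18 of mRNA and 18 of GMUCT, were used as deposited. The submitters' processing notes list cutadapt, STAR 2.4.2a and HTSeq. Further detail on genome build, annotation, tool settings and strandedness is not given in the sources used here. Where genes overlap on both strands, their reads may therefore be mixed. The 5 rows that count reads outside genes were left out. Per the labels, reads were 150 nt in pairs for mRNA and 50 nt from 1 end for GMUCT. The labels also gave the groups.

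CPM was the count divided by the library's gene total. GMUCT counts were tested with edgeR 4.0.16 in R 4.3.3 after filterByExpr and TMM scaling, in a single fit of 18 libraries in 6 group means. Quasi-likelihood F-tests were adjusted (Benjamini-Hochberg) over all 20696 genes, with a threshold of 0.05. The SE is the absolute log2 change divided by the square root of F. The tests were tried on simulated counts. Alternatives were RLE scaling, no filter, DESeq2 1.42.0, a replicate block, single libraries left out, fits of 2 groups, and other forms of the rule that chose the members.

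Named genes were the 2 members of highest rank, the 2 of highest mRNA level, the 3 genes on either side of rank 200 and, per comparison and direction, the 2 largest changes past the threshold without overlap and with at least 10 CPM at their highest time. Others are said to be chosen after their values were seen. The members and lists were chosen with earlier results of these data known. Lists by gene function could not be used without names. All replicates differed from each other beyond sampling noise.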

Additional observations from a re-analysis of the deposited data

How the results depend on the processing

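Among the changes that the naming rule picked per comparison, none reversed its direction under the alternatives run, and gene:Solyc10g009340.1 against Light 4h was the only one to lose its call. Of the other members with printed tests, gene:Solyc07g006890.1 against Dark 0h, Solyc06g007190 and Solyc12g014420 lost their call in some fits without a library, and gene:Solyc06g051680.1 against Dark 0h passed in all alternatives run. Against Dark 8h, Solyc02g063450, which did not pass, had a log2 change of 0.16, and of 0.47, -0.022 and -0.027 without replicate 1, 2 or 3 of Dark 4h. Leaving out 1 library or replicate number, or 1 Dark 4h mRNA library from the choice of members, gave these lowest and highest counts. Higher than Dark 0h ranged from 25 to 39, lower from 8 to 18. Higher than Dark 8h ranged from 8 to 17, lower from 0 to 2. Higher than Light 4h ranged from 48 to 86, lower from 3 to 11. Higher than the mean of the other times ranged from 28 to 54, lower from 0 to 4, and any difference from 83 to 135. The share of all genes called moved as well, from 3.18% to 8.94% for higher than the mean. Of the 200 members, 142 to 156 were chosen again. A fit of 2 groups alone found 6 members higher than at Dark 8h and 7 lower than at Light 4h. DESeq2 found 5 lower than at Dark 8h and 9 lower than at Light 4h, RLE scaling 1 lower than at Dark 8h, and the fit without Dark 0h 1 lower than the mean. The rule without Dark 0h mRNA, an alternative chosen after seeing the data, kept 133 members. For all of these the cause was not tested. With the replicate number as a block, 34 members were higher and 19 lower than at Dark 0h, 12 and 0 against Dark 8h, 68 and 5 against Light 4h and 48 and 2 against the mean, and 122 differed at all. Same-numbered GMUCT libraries did not deviate together throughout. Their correlations ran from -0.452 to 0.462 over 45 pairs, of which 17 were over 0.1 and 18 correlated best with their own number. Some pairs did deviate together, and the highest value was between replicates 3 of Light 4h and Dark 4h. The lowest was between replicates 3 of Light 0h and Dark 4h. The numbers were therefore not taken as pairs in the main fit. In GMUCT, 23 members had under 1 CPM at Dark 4h, and what their low counts do to the number of calls was not tested.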
